A study of Mus musculus with 12 samples.

Results

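The genes described here are the sphingosine-1-phosphate (S1P) receptors S1pr1 and S1pr2, the sphingosine kinases Sphk1 and Sphk2, the regulators of G protein signalling Rgs1, Rgs2 and Rgs16, and the receptor Gpr157, 8 of the 55416 genes in the deposited count table. They were taken by gene symbol, and the set was chosen by the measured fold change with lipopolysaccharide (LPS), since S1pr1, Rgs2 and Gpr157 are much lower in LPS libraries. No numeric limit was part of that choice. The levels with and without LPS are therefore descriptions and carry no test. Comparisons between the lines were tested, although they share libraries with the contrast that chose the genes. All 8 genes passed the filter on low counts. They are protein-coding genes: S1pr1 (ENSMUSG00000045092, chromosome 3), S1pr2 (ENSMUSG00000043895, chromosome 9), Sphk1 (ENSMUSG00000061878, chromosome 11), Sphk2 (ENSMUSG00000057342, chromosome 7), Rgs1 (ENSMUSG00000026358, chromosome 1), Rgs2 (ENSMUSG00000026360, chromosome 1), Rgs16 (ENSMUSG00000026475, chromosome 1) and Gpr157 (ENSMUSG00000047875, chromosome 4).

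RNA was taken from SIM-A9, a microglial line from C57BL/6 mice. The cells were either wild type (WT) or of the H14 line, which the labels call MOK-KO (KO), MOK being a protein kinase. Each was exposed for 5 h to LPS, a bacterial outer membrane molecule sensed by TLR4, at 1 µg/mL, or kept in medium. The 4 groups were KO under LPS, WT under LPS, KO in medium and WT in medium, with 3 libraries each, named in the labels as biological replicates. Nothing says how the replicate cultures were separated, so p-values measure the spread between these libraries. Only H14 stands for the knockout, so effects of MOK and of other features of that line cannot be told apart.

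S1P is a signalling lipid made from sphingosine by the sphingosine kinases, broken down by a lyase and phosphatases, and sensed by G protein-coupled receptors. S1PR1 signals through Gi and is best known for the exit of lymphocytes from lymphoid organs, while S1PR2 also couples to G12/13 and restrains migration. RGS proteins shorten G protein signals by speeding GTP hydrolysis on the alpha subunit. RGS2 acts with preference on Gq, and RGS1 and RGS16 act on Gi and Gq. GPR157 is an orphan receptor, reported to signal through Gq in mouse radial glia.

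RefSeq promoters on GRCm38.p6, which run from 250 bases before to 50 bases after a start site, were found for 6 of the 8 genes. S1pr1 and Rgs1 are the other two. The promoters of Rgs2 (chr1:144004100-144004399, minus strand), Gpr157 (chr4:150087253-150087552, plus strand) and Rgs16 (chr1:153740103-153740402, plus strand) are shown because Rgs2 and Gpr157 had lower levels under LPS and Rgs16 a higher one. Capitals mark the GC box GGGCGG on either strand.

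Rgs2: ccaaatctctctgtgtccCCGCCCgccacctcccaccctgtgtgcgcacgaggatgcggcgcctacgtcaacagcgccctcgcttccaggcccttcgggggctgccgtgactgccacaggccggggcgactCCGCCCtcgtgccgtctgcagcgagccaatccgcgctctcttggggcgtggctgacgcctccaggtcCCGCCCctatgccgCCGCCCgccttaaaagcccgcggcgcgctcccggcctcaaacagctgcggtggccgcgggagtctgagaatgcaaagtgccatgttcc
Gpr157: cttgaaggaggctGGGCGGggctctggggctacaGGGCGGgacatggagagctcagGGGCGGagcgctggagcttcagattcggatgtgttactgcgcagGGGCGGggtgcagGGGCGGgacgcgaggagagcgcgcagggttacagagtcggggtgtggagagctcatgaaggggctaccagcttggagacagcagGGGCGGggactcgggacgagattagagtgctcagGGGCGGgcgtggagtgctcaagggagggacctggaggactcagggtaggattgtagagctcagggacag
Rgs16: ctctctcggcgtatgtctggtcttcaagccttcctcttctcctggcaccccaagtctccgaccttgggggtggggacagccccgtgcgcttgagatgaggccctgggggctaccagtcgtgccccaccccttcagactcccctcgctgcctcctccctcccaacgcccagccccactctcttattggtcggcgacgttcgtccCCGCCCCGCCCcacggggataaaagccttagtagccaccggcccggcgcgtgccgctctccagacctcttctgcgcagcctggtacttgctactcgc

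The Gpr157 promoter held 7 GC boxes, a number reached by 0.627% of the 32851 promoters of the same length. Rgs2 held 4 (5.49% of promoters hold as many) and Rgs16 held 2, which overlap (19.5%). At least 1 GC box on either strand occurs in 35.7% of all promoters. The cAMP response element TGACGTCA was found in none of these 3 windows and once each in a promoter of S1pr2 and of Sphk2, against 1.79% of all promoters. The NF-kB pattern occurred 3 times in Rgs2, once in Gpr157 and 4 times in Rgs16, and 50.8% of all promoters hold it at least once. The KLF core CACCC had 1 match in Rgs2, 2 in Gpr157 and 3 in Rgs16, and 57.5%, 25.7% and 9.35% of all promoters hold at least as many. The AP-1 pattern TGANTCA was in none of the 3 windows and in 7.81% of all promoters. Both strands were searched for every pattern, and a match is a description of letters, not of binding.

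Libraries held 39.7 M to 72.9 M counts. Mok was detected in all 12 libraries, with 78, 84 and 56 counts in KO and 164, 87 and 158 in WT under LPS, and 115, 117 and 95 in KO and 158, 163 and 206 in WT in medium. Its log2 fold change was -0.72 ± 0.19 (SE) under LPS (edgeR adjusted p = 0.0177) and -0.58 ± 0.19 in medium (adjusted p = 0.0501), and the labels do not say which part of the gene was edited. Tnf, an early LPS response gene, averaged 1255 counts per M (CPM) in KO cells under LPS against 4.14 CPM in KO medium, and 1835 CPM in WT cells under LPS against 6.55 CPM in WT medium. Of the 10 microglia markers, Cd68, Csf1r, Ptprc, Tyrobp and Trem2 averaged 35.4 CPM or more in every group, while P2ry12 averaged 0.17 to 0.76 CPM and Aif1 0.882 to 1.504 CPM. Itgam averaged 2.94 CPM in KO LPS, 24.2 in WT LPS, 3.67 in KO medium and 20.9 in WT medium. Tmem119 averaged 0.57, 0.69, 5.97 and 3.85 CPM and Cx3cr1 0.83, 1.24, 2.76 and 4.86 CPM in the same groups, and the part of these differences in the results was not tested. Of the endothelial markers, Pecam1 and Cdh5 averaged 0.26 to 0.85 CPM and Kdr alone was high, at 95.9 to 121 CPM, which puts the summed level of the 5 listed markers at 110 to 128 CPM in KO LPS, 93 to 106 in WT LPS, 111 to 130 in KO medium and 90.8 to 111 in WT medium. The 6 lymphocyte markers summed to 13.7 to 22.1 CPM in KO LPS, 9.23 to 10.8 in WT LPS, 1.82 to 5.90 in KO medium and 2.23 to 9.95 in WT medium, mostly from Cd3e, and their part in the results was not tested. The 10 microglia markers summed to 842 to 1170 CPM in KO LPS, 1120 to 1320 in WT LPS, 698 to 1030 in KO medium and 973 to 1150 in WT medium, and the 4 oligodendrocyte markers to 11 to 14.7, 6.70 to 6.99, 24.6 to 25.4 and 9.46 to 14.7 CPM in the same order of groups. None of the listed markers was at 0 in all libraries. In KO LPS replicate 2, genes with no symbol took 10.4% of counts, compared with 4.88% to 8.18% elsewhere, and WT medium replicate 2 held 13% of its counts in processed pseudogenes, against 8.89% and 6.58% in WT medium replicates 1 and 3.

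S1pr1 was the most changed of the S1P genes. In KO cells it stood at 3.73, 2.26 and 3.91 CPM under LPS, against 47.6, 28.0 and 41.2 CPM in medium. In WT cells it stood at 2.80, 1.79 and 2.10 CPM under LPS, against 23.3, 13.5 and 12.3 CPM in medium. All LPS libraries lay below all medium libraries, and the log2 fold change was -3.56 ± 0.33 (SE) in KO and -2.87 ± 0.32 in WT, or 11.8-fold and 7.31-fold lower. Among 12222 genes whose mean log2 CPM reached 2, S1pr1 ranked 142nd from the lowest fold change in KO and 92nd in WT, Gpr157 ranked 320th and 117th, and Rgs2 397th and 72nd. Low ranks follow from the choice of these genes by their fall with LPS, so they are a description only.

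S1pr2, by contrast, kept overlapping levels. It was at 29.4, 16.6 and 29.1 CPM in KO under LPS, against 30.0, 22.5 and 26.8 CPM in KO medium, and at 33.5, 25.8 and 35.3 CPM in WT under LPS, against 36.0, 29.2 and 31.7 CPM in WT medium. The log2 fold changes were -0.08 ± 0.21 in KO and -0.03 ± 0.21 in WT. With the receptors set on a scale per kb of exon, with lengths from GENCODE M21 on GRCm38, their order by group mean turned over with LPS. S1pr1 averaged 1.08 ± 0.30 CPM per kb (SD, n = 3) in KO under LPS and S1pr2 3.14 ± 0.92, whereas S1pr1 averaged 12.8 ± 3.3 in KO medium and S1pr2 3.31 ± 0.47. In WT cells S1pr1 averaged 0.73 ± 0.17 CPM per kb under LPS and S1pr2 3.96 ± 0.64, against 5.38 ± 1.98 and 4.05 ± 0.43 in WT medium. The order in WT medium was less certain, with S1pr1 at 4.05 and S1pr2 at 3.98 CPM per kb in replicate 3. With the longest transcript as gene length, S1pr2 stood above S1pr1 in WT medium replicates 2 and 3. S1pr1 made up 21.0% ± 1.8 of the summed level per kb of the 5 S1P receptors in KO under LPS, against 74.8% ± 3.2 in KO medium, and 13.6% ± 1.9 in WT under LPS, against 52.3% ± 7.1 in WT medium. The 3 other receptors were scarce: S1pr5 averaged 0.45 to 0.69 CPM per kb over the groups, and S1pr3 and S1pr4 0.05 to 0.25. Fewer cells with a transcript and less transcript per cell cannot be told apart in these bulk libraries.

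Of the sphingosine kinases, Sphk2 was the abundant one. It stood at 29.0, 28.1 and 27.7 CPM in KO under LPS, against 24.9, 27.3 and 23.5 CPM in KO medium, and at 33.1, 31.4 and 32.6 CPM in WT under LPS, against 28.8, 25.4 and 26.0 CPM in WT medium. The groups did not overlap in either line, but the differences were small, with log2 fold changes of 0.17 ± 0.08 in KO and 0.28 ± 0.08 in WT, and they turned to -0.09 and -0.06 with scaling by library size alone. Sphk1 had 18 to 52 counts per library, 0.36 to 1.13 CPM, and its groups overlapped. It held 2.03% ± 0.79 (SD, n = 3) of the summed level per kb of both kinases in KO under LPS and 2.66% ± 0.72 in KO medium, and 1.29% ± 0.31 in WT under LPS and 1.93% ± 0.38 in WT medium. Sphk1 had 386 counts in all 12 libraries together.

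The 3 RGS genes did not move together. Rgs2 stood at 3.41, 3.12 and 3.08 CPM in KO under LPS, against 18.7, 16.5 and 18.6 CPM in KO medium. In WT it stood at 1.73, 1.79 and 1.77 CPM under LPS, against 16.7, 12.8 and 12.6 CPM in medium. The LPS libraries were all lower, and those of the same line were close to each other. The log2 fold change was -2.48 ± 0.13 in KO and -2.99 ± 0.14 in WT. Rgs1 went the other way, with 71.4, 35.1 and 59.9 CPM in KO under LPS, against 7.69, 6.25 and 8.18 CPM in KO medium, and 63.3, 78.3 and 63.3 CPM in WT under LPS, against 15.1, 16.5 and 15.7 CPM in WT medium. Its groups were far apart, at log2 fold changes of 2.91 ± 0.23 in KO and 2.12 ± 0.22 in WT, and KO LPS replicate 2 was the lowest LPS library. Rgs16 was also higher with LPS, at 2.58, 3.43 and 3.46 CPM in KO under LPS, against 0.64, 0.93 and 0.32 CPM in KO medium, and 2.59, 2.77 and 2.82 CPM in WT under LPS, against 0.38, 0.35 and 0.42 CPM in WT medium. Its log2 fold changes of 2.33 ± 0.31 in KO and 2.82 ± 0.32 in WT rest on 16 to 42 counts per library in medium.

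Per kb of exon, the RGS genes changed places. Rgs2 made up 2.24% ± 0.17 (SD, n = 3) of the summed level of the 21 listed RGS genes in KO under LPS, against 14.3% ± 0.4 in KO medium, and 0.854% ± 0.006 in WT under LPS, against 8.29% ± 0.97 in WT medium. Rgs1 made up 19.8% ± 4.8 in KO under LPS, against 3.06% ± 0.31 in KO medium, and 17.2% ± 1.8 in WT under LPS, against 4.89% ± 0.56 in WT medium. Rgs16 stayed at or below 3.46% in every group mean. The abundant members of the family per kb were Rgs19, a regulator of Gi, with 34.0% ± 3.8 in KO LPS, 39.9% ± 1.6 in WT LPS, 31.9% ± 4.3 in KO medium and 42.6% ± 1.6 in WT medium, and Rgs10, with 22.3% ± 2.7, 16.3% ± 2.2, 32.4% ± 5.3 and 21.1% ± 2.4 in the same groups. In KO medium these shares of Rgs19 and Rgs10 overlapped between libraries.

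Gpr157 followed the course of S1pr1. It stood at 8.79, 4.19 and 10.2 CPM in KO under LPS, against 60.9, 37.2 and 57.6 CPM in KO medium. In WT it stood at 3.33, 3.66 and 3.95 CPM under LPS, against 30.9, 20.7 and 20.9 CPM in medium. No LPS library reached a medium library, and the fold changes were nearly equal in both lines, at log2 values of -2.75 ± 0.32 in KO and -2.73 ± 0.32 in WT. The transcripts of Gpr157 share 5.09% of their 31-mers with other genes, against at most 2.23% for the other 7 genes, so its counts are less certain. Sphk1, Sphk2 and Rgs16 overlap genes on the opposite strand in the reference annotation, and the strand setting of the counting is not given in the sources used here, so reads of those partners cannot be told apart from theirs. LPS and medium libraries did not overlap in either line for S1pr1, Sphk2, Rgs1, Rgs2, Rgs16 and Gpr157, and they overlapped for S1pr2 and Sphk1. How many of all genes had no such overlap was not counted, so nothing is read from the number of these genes. By another measure, 52% of all genes were called in KO and 32.6% in WT at an edgeR adjusted p under 0.05.

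**Figure D1:**
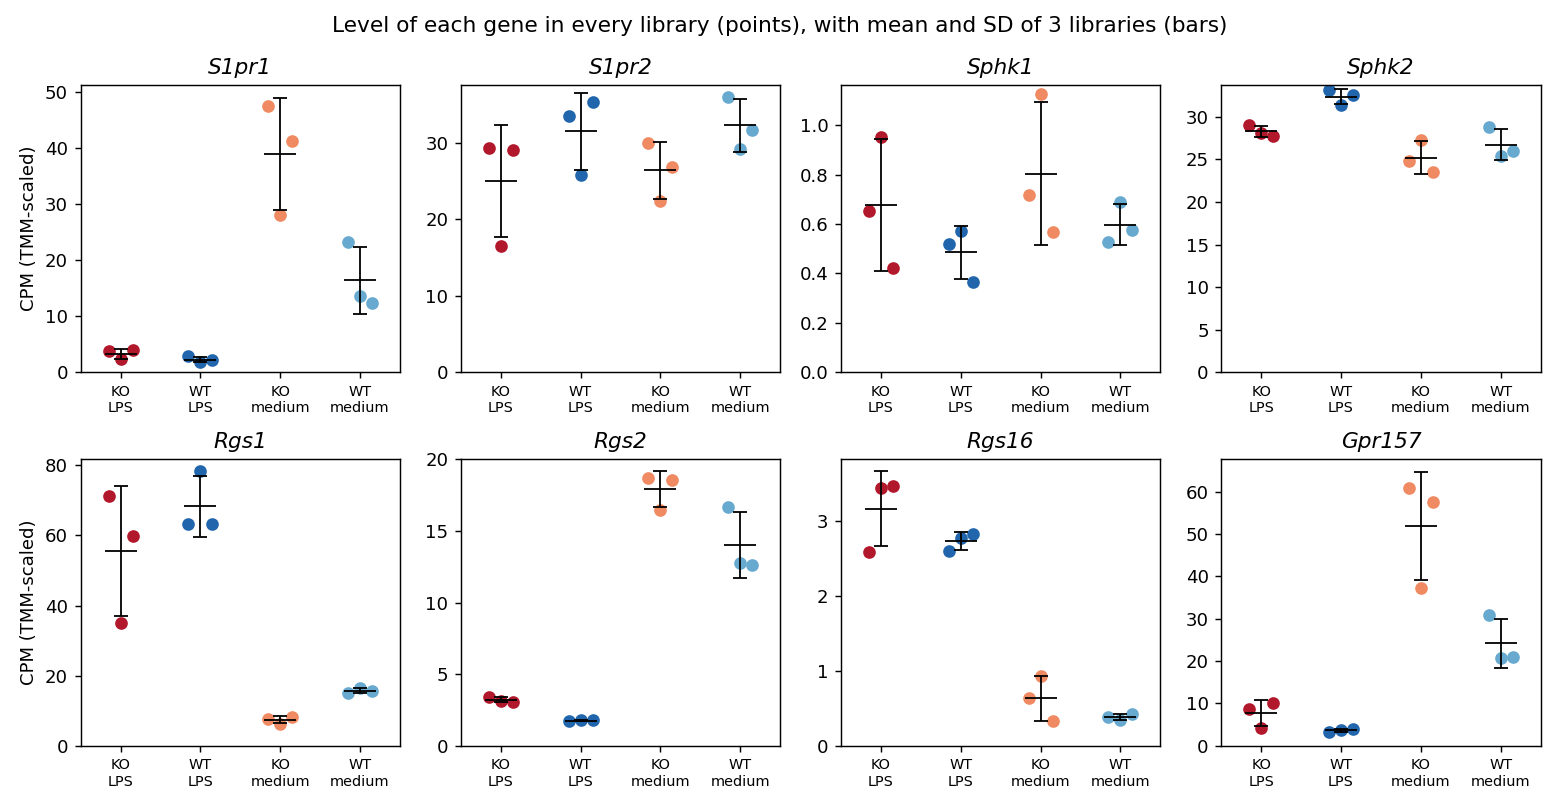
CPM of the 8 genes in each of the 12 libraries (points, KO LPS, WT LPS, KO medium and WT medium from left to right), with the mean and SD of 3 libraries as bars. S1pr1, Rgs2 and Gpr157 sit lower with LPS in both lines, Rgs1 and Rgs16 sit higher, and S1pr2 and Sphk1 overlap.

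**Figure D2:**
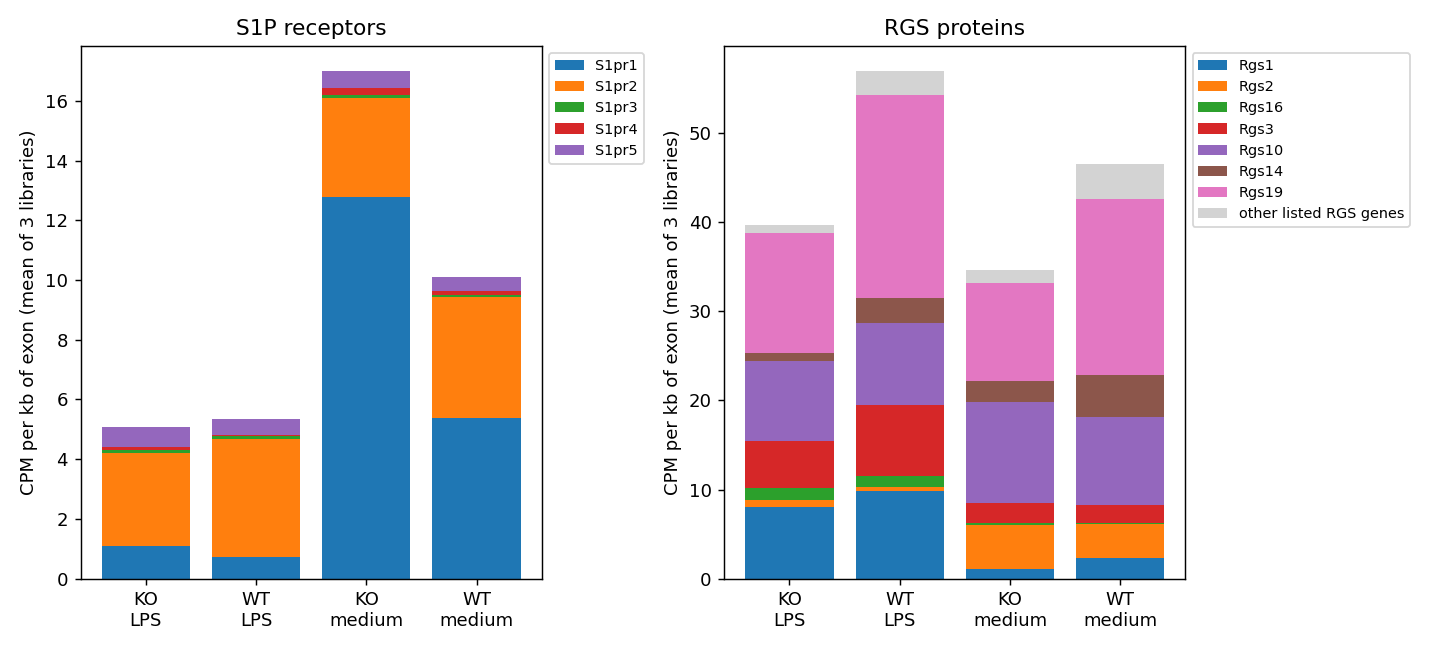
Stacked mean level of the S1P receptors (left) and the RGS genes (right) in CPM per kb of exon in the 4 groups, 3 libraries each, without error bars. S1pr1 fills most of the S1P receptor bar in KO medium, with a mean of 74.8%, and S1pr2 most of it under LPS, and among the RGS genes the Rgs2 segment shrinks and the Rgs1 segment grows with LPS.

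The lines were then compared without LPS, which asks how the KO line differs from WT at rest. S1pr1 was 2.38-fold higher in KO medium, at 38.9 ± 10.0 CPM (SD, n = 3), than in WT medium, at 16.4 ± 6.0 CPM (log2 fold change 1.25 ± 0.30, edgeR adjusted p = 0.0135). Gpr157 was 2.15-fold higher, at 51.9 ± 12.8 CPM in KO and 24.2 ± 5.8 CPM in WT (1.10 ± 0.30, adjusted p = 0.0266). Rgs1 was 2.13-fold lower, at 7.37 ± 1.01 CPM in KO and 15.7 ± 0.7 CPM in WT (-1.09 ± 0.22, adjusted p = 0.00498). The groups did not overlap for these 3 genes, but how many of all genes showed no overlap between the lines was not counted. In all, 3 of the 8 genes were called, against 19.2% of all genes. The 3 were 2 higher genes, against 6.88% of all genes, and 1 lower gene, against 12.3%.

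Rgs2 had a log2 fold change of 0.35 ± 0.13 in medium (adjusted p = 0.0706) and Rgs16 of 0.71 ± 0.33 (adjusted p = 0.144), and neither passed. S1pr2 was at -0.29 ± 0.21 (adjusted p = 0.326), Sphk1 at 0.42 ± 0.34 (adjusted p = 0.376) and Sphk2 at -0.08 ± 0.08 (adjusted p = 0.452). The share of counts in processed pseudogenes was 12.8% to 14.3% in KO medium and 6.58% to 13% in WT medium. With that share as a covariate S1pr1 was at 1.16 ± 0.46 (adjusted p = 0.183) and Gpr157 at 1.09 ± 0.47 (adjusted p = 0.228), so both calls ended, while Rgs1 kept its call. The S1pr1 call also ended when only the 2 groups were fitted (1.23 ± 0.32, adjusted p = 0.0575), and that of Gpr157 without KO medium replicate 1 or 3 (adjusted p = 0.0791 and 0.0809), without WT medium replicate 3 (0.0846) or with no filter (0.0656). Rgs16 was called without KO medium replicate 3 (0.99 ± 0.26, adjusted p = 0.0321) and Rgs2 without WT medium replicate 1 (0.45 ± 0.12, adjusted p = 0.0358). Rgs2 was also called in medium under the stricter filter (0.38 ± 0.11, adjusted p = 0.0278), with the replicate block (0.36 ± 0.11, adjusted p = 0.0451) and over protein-coding genes only (0.38 ± 0.11, adjusted p = 0.0184).

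Under LPS, what remained of Rgs2 and Gpr157 was higher in the KO line. Rgs2 averaged 3.20 ± 0.18 CPM in KO and 1.76 ± 0.03 CPM in WT, 1.82-fold higher in KO (log2 fold change 0.86 ± 0.13, edgeR adjusted p = 0.000679). The call held under all 23 alternatives, with adjusted p between 5.58e-05 and 0.00477. Gpr157 averaged 7.71 ± 3.13 CPM in KO and 3.65 ± 0.31 CPM in WT, 2.11-fold higher (1.08 ± 0.31, adjusted p = 0.0313). The libraries of KO and WT did not overlap for either gene, and the number of all genes without such overlap was not counted. Of the 8 genes, 2 were called, against 20.6% of all genes. Both were higher, against 7.87% of all genes, and 0 were lower, against 12.7%. DESeq2 also called 0 lower, and 1 gene, Sphk2, was lower at an unadjusted p under 0.05.

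The Gpr157 call under LPS was lost without KO LPS replicate 1 or 3 (adjusted p = 0.105 and 0.128), without WT LPS replicate 1, 2 or 3 (0.11, 0.0868 and 0.0758) and with no filter (0.092). S1pr1 was at 0.56 ± 0.31 under LPS (adjusted p = 0.275), with KO and WT libraries that overlapped. Rgs1 was at -0.30 ± 0.21 (adjusted p = 0.402) and Rgs16 at 0.21 ± 0.29 (adjusted p = 0.713). S1pr2 was at -0.34 ± 0.21 (adjusted p = 0.331) and Sphk1 at 0.51 ± 0.35 (adjusted p = 0.388). Sphk2 was at -0.19 ± 0.08 (adjusted p = 0.111), with 28.3 ± 0.7 CPM in KO and 32.4 ± 0.9 CPM in WT and no overlap, and it was called over protein-coding genes only (-0.23 ± 0.07, adjusted p = 0.025) and without KO medium replicate 2 (-0.20 ± 0.06, adjusted p = 0.0446).

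The order of the 4 groups was the same for S1pr1 and Gpr157, namely KO medium, WT medium, KO LPS and WT LPS from high to low, and KO LPS and WT LPS were not distinct for S1pr1. Rgs2 had the same order, but KO medium and WT medium overlapped. For Rgs1 the order was WT LPS, KO LPS, WT medium and KO medium, and the LPS groups overlapped. For Rgs16 it was KO LPS, WT LPS, KO medium and WT medium, with overlap within each treatment. S1pr2 and Sphk1 overlapped between all neighbouring groups, and for Sphk2 WT LPS stood above the other groups, KO LPS came next and overlapped WT medium, and WT medium overlapped KO medium.

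Whether the LPS effect differs between the lines was tested as the LPS effect in KO minus that in WT. For 0 of the 8 genes was this difference called by edgeR, against 1.6% of all genes (0.693% higher and 0.908% lower), and DESeq2 called 0 as well. Rgs1 (0.79 ± 0.30, adjusted p = 0.276) and Rgs2 (0.51 ± 0.18, adjusted p = 0.244) had an unadjusted p under 0.05, at 0.0235 and 0.0172. S1pr1 was at -0.69 ± 0.43 (adjusted p = 0.509), Gpr157 at -0.03 ± 0.43 (adjusted p = 0.985) and Rgs16 at -0.50 ± 0.43 (adjusted p = 0.628). S1pr2, Sphk1 and Sphk2 were at -0.05 ± 0.29, 0.08 ± 0.48 and -0.11 ± 0.11, with adjusted p of 0.958, 0.954 and 0.672. Without KO LPS replicate 2 the difference for Rgs1 was 1.04 ± 0.18 and passed the test (adjusted p = 0.0155).

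**Figure D3:**
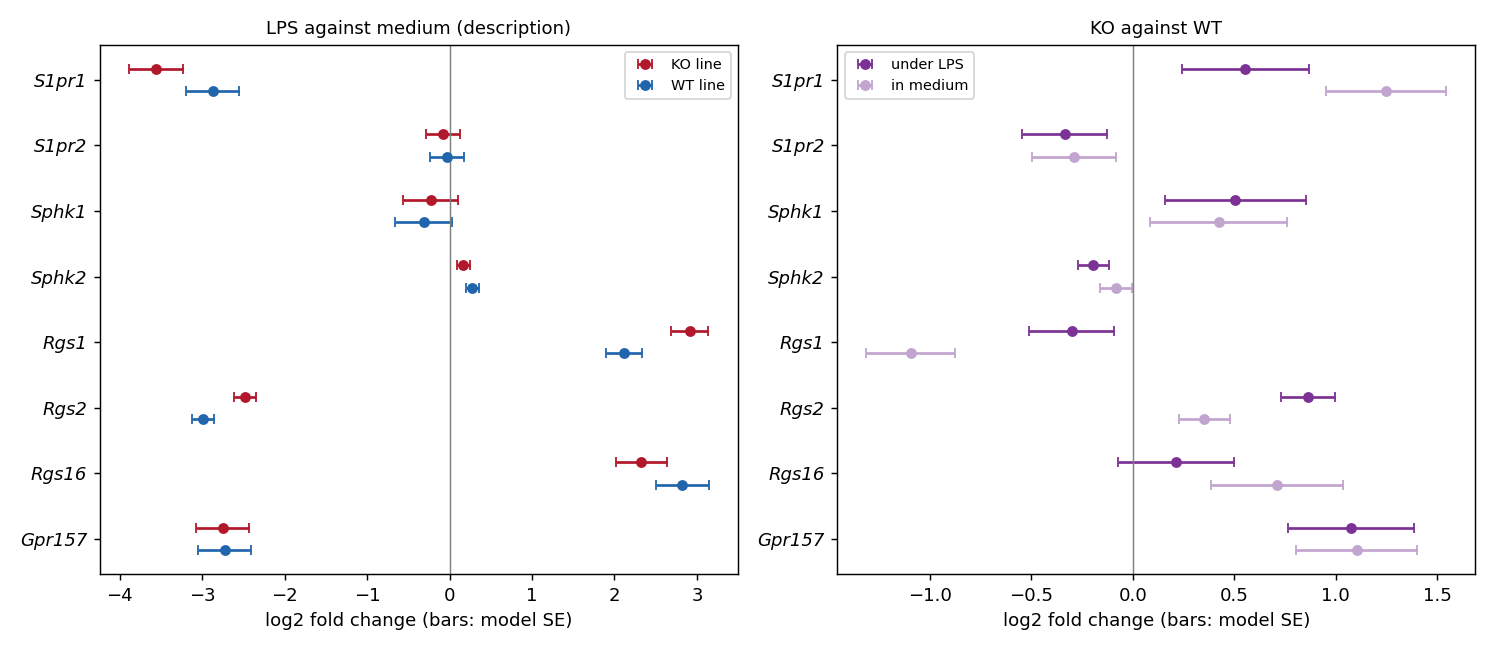
Log2 fold changes of the 8 genes with the SE of the model, for LPS against medium in KO and WT (left, description only) and for KO against WT under LPS and in medium (right). S1pr1 and Gpr157 lie near 1 for KO against WT in medium, Rgs1 near -1, and Rgs2 at 0.86 under LPS.

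The other genes of S1P signalling were counted without the 8 genes. Beside 25.3% of all genes called higher and 26.8% lower with LPS in KO, and 16.3% each way in WT, 3 of the 11 other genes of S1P synthesis, breakdown and transport rose and 5 fell in KO, and 3 rose and 2 fell in WT (median log2 fold change -0.21 and -0.185, against -0.04 and -0.07 over all genes). The lipid phosphatase Plpp1 rose by 1.15 ± 0.13 in KO and 1.19 ± 0.13 in WT (adjusted p = 4.95e-05 and 3.46e-05), and Plpp3 by 2.48 ± 0.14 and 0.74 ± 0.13 (2.53e-07 and 0.00145). The transporter Abcc1, which can export S1P, rose by 1.57 ± 0.14 and 1.12 ± 0.13 (5.9e-06 and 6.72e-05). The S1P phosphatase Sgpp1 had log2 fold changes of -0.83 ± 0.16 in KO and -0.86 ± 0.16 in WT (0.00185 and 0.00173), and the S1P exporter Spns2 of -0.69 ± 0.23 and -0.77 ± 0.23 (0.0261 and 0.0278). In KO the lower genes also included the exporter Mfsd2b (-0.85), the lipid exporter Abca1 (-0.99) and the S1P carrier Apom (-0.98). Mfsd2b and Apom were scarce, with 24 to 42 and 15 to 30 counts per library in KO under LPS. The S1P lyase Sgpl1 did not pass (0.15 ± 0.14 in KO and 0.05 ± 0.14 in WT, adjusted p = 0.379 and 0.785).

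Among the other receptors, S1pr4, a receptor of blood cells, fell in KO and WT (-1.40 ± 0.31 and -1.37 ± 0.35, adjusted p = 0.00422 and 0.0123), on 10 to 12 and 3 to 12 counts per library under LPS. S1pr3 and S1pr5 did not pass in either line, at -0.17 and 0.33 in KO and 0.20 and 0.21 in WT. Of 8 genes that control S1PR1, 3 rose and 2 fell in KO, and 3 rose and 1 fell in WT. The shares over all genes were 25.3% higher and 26.8% lower in KO, and 16.3% each way in WT. Cd69, a membrane protein that binds S1PR1 and takes it off the cell surface, rose by 5.79 ± 0.41 in KO and 6.51 ± 0.41 in WT (adjusted p = 1.56e-06 and 5.49e-07). Foxo1, a transcription factor upstream of Klf2 and S1pr1 in T cells, fell (-0.74 ± 0.16 and -1.02 ± 0.16, adjusted p = 0.00347 and 0.000577). Klf2, a transcription factor that drives S1pr1 in T cells, fell in KO (-1.29 ± 0.24, adjusted p = 0.00152) and was at -0.49 ± 0.23 in WT (adjusted p = 0.126). Stat3 rose in both lines (0.92 ± 0.11 and 1.20 ± 0.11), as did Arrb2, the beta-arrestin that binds activated receptors (1.12 ± 0.09 and 0.63 ± 0.09).

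Between the lines, Sgpp1 was higher in KO under LPS (1.00 ± 0.16, adjusted p = 0.000791) and in medium (0.98 ± 0.16, adjusted p = 0.00119). Plpp2 was lower in KO in both (-0.88 ± 0.12 and -0.74 ± 0.12, adjusted p = 0.000229 and 0.000989). Plpp3 was lower in KO medium (-1.95 ± 0.14, adjusted p = 3.3e-06) and Abca1 lower in KO under LPS (-1.35 ± 0.18, adjusted p = 0.000239). Cd69 was lower in KO under LPS (-1.42 ± 0.31, adjusted p = 0.00626). Of the 25 tested genes of ceramide and sphingosine metabolism, 1 was higher and 10 were lower in KO under LPS, and 0 higher and 10 lower in medium. Of all genes, 7.87% were higher and 12.7% lower in KO under LPS, and 6.88% and 12.3% in medium. The median log2 fold change of the list was -0.316 under LPS and -0.374 in medium, against 0.07 and 0.04 over all genes. The lower genes included Sptlc2, a subunit of the enzyme that starts sphingolipid synthesis (-0.95 ± 0.08 and -0.55 ± 0.08), and the ceramide synthase Cers6 (-0.89 ± 0.09 and -0.62 ± 0.09).

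**Figure D4:**
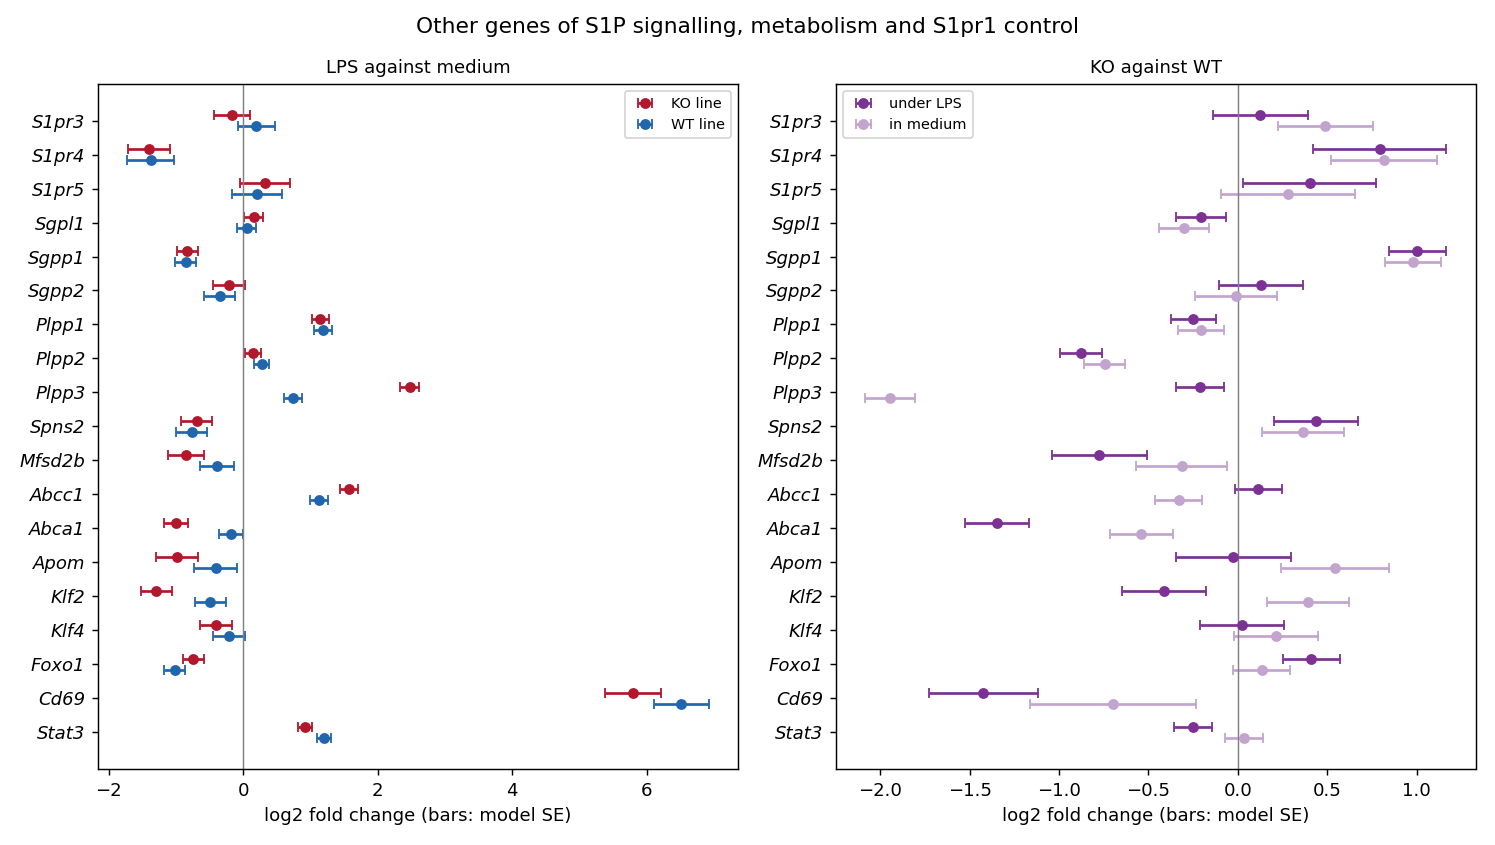
Log2 fold changes with the SE of the model for the other S1P receptors, the other genes of S1P synthesis, breakdown and transport, and 5 genes that control S1pr1, for LPS against medium in KO and WT (left) and KO against WT under LPS and in medium (right). Cd69 lies farthest to the right with LPS in both lines, at 5.79 and 6.51, and Plpp3 farthest to the left for KO against WT in medium, at -1.95.

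Of the 14 other RGS genes tested, 5 rose and 4 fell with LPS in KO, and 2 rose and 2 fell in WT (median 0.08 and 0.04). Beside this, 25.3% of all genes were called higher and 26.8% lower in KO, and 16.3% each way in WT. Rgs3 rose in both lines (1.24 ± 0.08 in KO and 2.01 ± 0.08 in WT, adjusted p = 8.34e-07 and 2.51e-08). Rgs14, which binds Gi and Ras proteins, fell in both (-1.40 ± 0.10 and -0.75 ± 0.10, adjusted p = 1.85e-06 and 0.000177), and so did Rgs11 (-2.02 ± 0.24 and -0.83 ± 0.21, adjusted p = 8.11e-05 and 0.0119). The microglial regulator Rgs10 did not pass (-0.34 ± 0.20 and -0.09 ± 0.20, adjusted p = 0.178 and 0.754). KO cells had 1 of these genes higher and 6 lower under LPS, and 1 higher and 4 lower in medium, against 7.87% and 12.7% of all genes under LPS and 6.88% and 12.3% in medium. Rgs11 was the most reduced at -4.09 ± 0.25 under LPS and -2.90 ± 0.23 in medium, Rgs14 was at -1.59 ± 0.10 and -0.94 ± 0.10, and Rgs19 at -0.76 ± 0.08 and -0.85 ± 0.08, all with adjusted p of 6.55e-05 or less. Rgs8 was the higher gene in both (0.94 ± 0.24 and 0.83 ± 0.24, adjusted p = 0.0146 and 0.0315).

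Of the 39 other tested receptors with GPR names, 11 rose and 12 fell with LPS in KO, and 6 rose and 8 fell in WT. Over all genes, 25.3% were called higher and 26.8% lower in KO, and 16.3% each way in WT. Gpr157 was not alone among these receptors in being lower with LPS. Gpr183, the receptor for oxysterols that guides immune cells, fell by 1.68 ± 0.21 on the log2 scale in KO and by 2.60 ± 0.22 in WT (adjusted p = 0.000118 and 5.1e-06). Gpr84, a receptor for medium-chain fatty acids, rose by 3.32 ± 0.21 in both lines (adjusted p = 5.21e-07 in KO and 5.4e-07 in WT).

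The genes whose log2 CPM ran most like S1pr1 over the 12 libraries, among 9963 protein-coding genes, were Man1c1, Mettl7a1 and Gpr157 (Pearson r = 0.985, 0.984 and 0.984). For Gpr157 they were Pik3ip1, Mettl7a1 and Fbxo32 (0.990, 0.990 and 0.989), and S1pr1 ranked 7th. For Rgs2 they were Otulinl, Slc26a11 and Susd3 (0.998, 0.994 and 0.993), with S1pr1 56th at 0.967 and Gpr157 65th at 0.965. The 12 libraries fall into 4 groups and share the LPS difference, so these values mainly follow the group means, and no test was made.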

How the data were processed

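RNA-seq counts were read for 12 libraries of SIM-A9 cells (4 groups of 3). Per the labels' protocols, a stranded total RNA kit with ribosomal RNA removal was used. The authors deposited raw read counts per Ensembl gene. FastQC 0.11.9, Trimmomatic 0.39, STAR 2.7.9a, featureCounts and DESeq2 1.32.0, with build GRCm39, are the tools and build named per the submitters' processing notes. Which annotation release, strand setting and rule for multi-mapping reads applied is not given in the sources used here. Of 55416 identifiers, 52083 matched a symbol in GENCODE M21 (GRCm38), which gave names, classes and exon lengths only.

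edgeR 4.0.16 in R 4.3.3 kept 26420 genes (filterByExpr, count minimum 10), scaled libraries by TMM and fitted 4 group means (glmQLFit, robust). P-values were adjusted over all genes by Benjamini-Hochberg within a comparison, and a gene was called at an adjusted p under 0.05. SEs come from the fold change and F statistic. CPM use TMM-scaled library sizes, and levels per kb divide by the union of exons. DESeq2 1.42.0 was an alternative. The fit was tested on simulated data with changes set in KO medium. For KO against WT in medium it recovered 47 of 100 2-fold and 84 of 100 4-fold changes. For the difference of the LPS effects it recovered 26 and 65 of 100, so a gene not called may still differ. Of 135 and 95 calls, 4 in each comparison were genes without a set change.

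The members and lists were chosen with earlier results of these data known. Named genes were the 8 members, Mok, an LPS check, all S1P receptors and RGS genes that a result turns on, up to 3 called genes per list and comparison whose mean log2 CPM reached 2, and the 3 genes most like S1pr1, Rgs2 and Gpr157. Any other gene named was chosen after its values were seen. Alternatives were scaling by RLE or by library size alone, fitting all genes, a filter of 50 counts in 3 libraries, non-robust estimation, a replicate block, protein-coding genes only, the log2 share of processed pseudogenes as a covariate, only the groups compared, each library left out and, added after seeing the data, KO LPS replicate 2 and WT medium replicate 2 both left out.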

Additional observations from a re-analysis of the deposited data

How the results depend on the processing

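The count of called genes among the 8 was 3 for KO against WT in medium, 2 under LPS and 0 for the difference of the LPS effects. In medium it was 4 under the stricter filter and over protein-coding genes, 1 with the pseudogene covariate, and under LPS 1 with no filter. Leaving out each library in turn gave 2 to 4 in medium, 1 to 3 under LPS and 0 to 1 for the difference of the LPS effects, where Rgs1 was called without KO LPS replicate 2. Without both KO LPS replicate 2 and WT medium replicate 2 the counts were 3, 2 and 1. The replicate block gave 4, 3 and 0, with S1pr1 called under LPS (adjusted p = 0.0477). Whether the replicate numbers pair the libraries cannot be told from these values. Deviations from the group mean in same-numbered libraries had correlations of -0.366 to 0.391 for KO and WT in medium and -0.0414 to 0.209 under LPS. For LPS and medium they were 0.0449 to 0.335 in KO and -0.168 to 0.232 in WT. Pairs with unlike numbers ran, in the same order, from -0.576 to 0.443, -0.227 to 0.102, -0.272 to 0.045 and -0.254 to 0.275. In that order, 1, 2, 2 and 1 of the 3 libraries matched their own number best. The small Sphk2 differences with LPS turned to -0.09401 in KO and -0.0585 in WT with library size alone, where the median of all genes was -0.293 and -0.403 (-0.04 and -0.07 as reported) and 4186 genes were higher and 10417 lower in KO, and 2104 and 9982 in WT. As reported the counts were 6679 and 7070 in KO and 4303 and 4297 in WT. Under LPS, KO against WT had 2080 genes higher and 3351 lower, and 2921 and 2938 with library size alone. For the difference of the LPS effects 423 genes were called (183 higher and 240 lower), 596 (360 and 236) with library size alone, 661 with the replicate block, 670 over protein-coding genes, 199 with the pseudogene covariate, 743 by DESeq2, 2704 without both libraries, and 186 to 3995 with a library left out, the highest without WT medium replicate 2. KO against WT in medium had 5074 calls, 11265 without WT medium replicate 2, 11432 without both libraries, 3354 from those groups alone and 2342 with the pseudogene covariate. LPS in KO had 13749 calls, 2001 with that covariate and 8269 over protein-coding genes, and LPS in WT 8600, 5574 with the covariate and 5322 and 5695 without WT LPS replicates 1 and 3. Sphk1 could not be fitted under the stricter filter. With the longest transcript as gene length the S1pr1 share of S1P receptor level was 18.3% in KO LPS, 11.52% in WT LPS, 71.3% in KO medium and 47.5% in WT medium. Depth limits the precision for Sphk1 most, with 386 counts in all.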

Other observations

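Of 27 heterotrimeric G protein subunits tested, 7 rose and 7 fell with LPS in KO, near the 25.3% of all genes called higher and 26.8% lower, and 7 rose and 7 fell in WT, where 16.3% of all genes were called each way. Gng12 rose in both lines (0.91 ± 0.12 in KO and 0.98 ± 0.12 in WT, edgeR adjusted p = 0.000154 and 8.26e-05). Gnai2, which encodes a Gi alpha subunit, was at -0.15 ± 0.11 in KO and 0.01 ± 0.11 in WT with LPS (adjusted p = 0.305 and 0.946). Gnai2 was lower in KO than in WT under LPS (-0.52 ± 0.12, adjusted p = 0.00675). Gnai3, which encodes another Gi alpha subunit, averaged 172.7 CPM in KO LPS against 130.8 in KO medium. In WT it averaged 198.3 CPM under LPS against 141.1 in medium. Of 20 effector enzymes, 8 rose and 5 fell in KO, and 3 rose and 5 fell in WT. The cAMP phosphodiesterase Pde4b rose by 3.64 ± 0.14 in KO and 3.43 ± 0.14 in WT (adjusted p = 1.12e-08 and 1.75e-08), and the adenylyl cyclase Adcy7 fell (-1.02 ± 0.08 and -0.62 ± 0.08, adjusted p = 2.65e-06 and 0.000101). Of 8 receptor kinases and arrestins, 1 was higher and 3 were lower in KO than in WT under LPS, and 0 were higher and 5 lower in medium, where 7.87% and 12.7% of all genes were higher and lower under LPS and 6.88% and 12.3% in medium, among them Arrb2 (-0.30 ± 0.09 and -0.79 ± 0.09, adjusted p = 0.0281 and 8.83e-05).

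Within the KO line, replicate 2 was the lowest library for S1pr1, S1pr2, Rgs1 and Gpr157 both under LPS (2.26, 16.6, 35.1 and 4.19 CPM) and in medium (28.0, 22.5, 6.25 and 37.2 CPM). It was the highest for Sphk1 in both (0.95 and 1.13 CPM).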
